A study of Arabidopsis thaliana with 9 samples.

Results

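The nucleolar ribosome biogenesis factors described here are 10 Arabidopsis genes, picked out by locus identifier from 33201 rows in the table. They are the fibrillarin genes FIB1 (AT5G52470) and FIB2 (AT4G25630), NOP56 (AT1G56110), NOP58 (AT5G27120), CBF5 (AT3G57150), the nucleolin genes NUC1 (AT1G48920) and NUC2 (AT3G18610), PES (AT5G14520), the BOP1 homologue AT2G40360 and the WDR12 homologue AT5G15550. All 10 have a row of their own, and 9 had a mean level of at least 1 FPKM. The exception was NUC2.

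The samples were roots of the XVE:PAN transgenic line of ecotype Col-0, in which β-estradiol switches on the bZIP transcription factor PERIANTHIA (PAN). Seedlings on medium with 1% sucrose were moved to medium that also held β-estradiol at 10 uM and sampled after 0, 6 or 24 h, at an age of 5 days in every group. Each of the 3 times had 3 biological replicates. The authors combined these into 1 value per gene and time. All groups carry the transgene, and no mock transfer and no line without the transgene was analysed here, so PAN, estradiol and time since transfer cannot be told apart. One label gives the tissue as whole root, while the extraction protocol gives a cut at roughly 0.5 cm from the root tip.

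The nucleolus is the compartment where ribosomal RNA is transcribed, chemically modified, cut and packed with proteins into ribosomal subunits. Small guide RNAs direct the modification: box C/D particles methylate riboses, with fibrillarin as the enzyme and NOP56 and NOP58 as its scaffold, and box H/ACA particles make pseudouridine, with CBF5 as the enzyme. Nucleolin acts on ribosomal DNA chromatin and on the first cuts of the precursor RNA. PES, BOP1 and WDR12 form a complex that the large subunit needs to mature. In roots these genes are known for high activity in dividing and growing cells of the tip.

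The promoters of several of these genes carry 2 short elements known from plant ribosomal protein and cell growth genes, the telo-box (AAACCCTA) and site II (TGGGCC or TGGGCT). The 250 bases before each annotated gene start were searched for them on both strands, in the TAIR10.1 assembly with its RefSeq annotation. TAIR10.1 keeps the nuclear chromosomes of TAIR10, the build named in the submitters' processing notes. Site II letters were found before 8 of the 10 genes, against 19.2% of 27443 protein-coding promoters, and the telo-box before 4 of 10, against 4.49%. Both elements together stood before FIB1, NOP56, NOP58 and BOP1, against 1.36% of all promoters. Before 71 other ribosome biogenesis genes, site II was found in 36 and the telo-box in 9. A search for TGACG, the core of the site that TGA-type bZIP factors bind, found none before the 10 genes, against 18.6% of all promoters. These are matches of letters within 1 window. They do not show that a factor binds, and a window without them says nothing about the factor.

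The 6 promoters below are shown to set the paralogue pairs FIB1 and FIB2, and NUC1 and NUC2, beside the scaffold genes that hold both elements. Capitals mark telo-box and site II letters on either strand (reverse strand: TAGGGTTT, GGCCCA and AGCCCA). The windows of NOP56 and NOP58 end where the neighbouring gene begins, 175 and 194 bases before the start. FIB1 at chr5:21293897-21294146 on the plus strand, FIB2 at chr4:13073840-13074089 on the plus strand, NOP56 at chr1:20986953-20987127 on the minus strand, NOP58 at chr5:9540667-9540860 on the plus strand, NUC1 at chr1:18097831-18098080 on the plus strand and NUC2 at chr3:6407947-6408196 on the minus strand read as follows.
FIB1: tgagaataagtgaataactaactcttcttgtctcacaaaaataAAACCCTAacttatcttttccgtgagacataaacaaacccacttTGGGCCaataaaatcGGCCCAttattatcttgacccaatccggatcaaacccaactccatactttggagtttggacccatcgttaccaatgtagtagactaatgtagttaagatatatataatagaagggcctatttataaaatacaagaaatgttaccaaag
FIB2: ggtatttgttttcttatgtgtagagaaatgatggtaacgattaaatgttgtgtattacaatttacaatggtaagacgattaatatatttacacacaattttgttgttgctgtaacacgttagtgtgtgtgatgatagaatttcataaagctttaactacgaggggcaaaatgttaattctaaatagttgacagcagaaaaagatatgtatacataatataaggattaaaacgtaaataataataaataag
NOP56: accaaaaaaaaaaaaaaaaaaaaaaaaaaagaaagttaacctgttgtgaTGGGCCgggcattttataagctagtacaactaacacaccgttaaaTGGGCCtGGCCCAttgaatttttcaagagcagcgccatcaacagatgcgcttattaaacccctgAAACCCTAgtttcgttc
NOP58: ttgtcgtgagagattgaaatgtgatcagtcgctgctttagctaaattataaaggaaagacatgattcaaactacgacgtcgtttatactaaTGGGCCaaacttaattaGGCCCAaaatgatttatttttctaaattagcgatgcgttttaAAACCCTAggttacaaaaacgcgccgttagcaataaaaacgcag
NUC1: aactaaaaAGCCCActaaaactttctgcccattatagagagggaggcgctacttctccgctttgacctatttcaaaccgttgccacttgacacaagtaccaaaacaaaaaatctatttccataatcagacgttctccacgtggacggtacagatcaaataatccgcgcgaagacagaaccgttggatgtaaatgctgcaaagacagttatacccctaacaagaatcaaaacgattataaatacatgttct
NUC2: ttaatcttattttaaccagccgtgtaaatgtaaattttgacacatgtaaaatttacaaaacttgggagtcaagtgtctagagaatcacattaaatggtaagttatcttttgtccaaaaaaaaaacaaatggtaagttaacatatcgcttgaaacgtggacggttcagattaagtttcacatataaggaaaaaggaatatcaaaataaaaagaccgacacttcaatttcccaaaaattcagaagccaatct

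In FIB1 the telo-box lies 207 to 200 bases before the start and the nearest site II 148 to 143 bases before it. In NOP56 the telo-box is much closer to the start, at 17 to 10 bases, and 3 site II matches lie between 126 and 69 bases. In NOP58 the telo-box is at 44 to 37 bases, with site II matches at 103 and 86 bases. The 250 bases before FIB2 and those before NUC2 hold neither element. NUC1 has a single site II match, at 242 to 237 bases. The paralogues thus differ in these letters. Any link between the letters and the RNA values that follow was not tested.

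**Figure D1:**
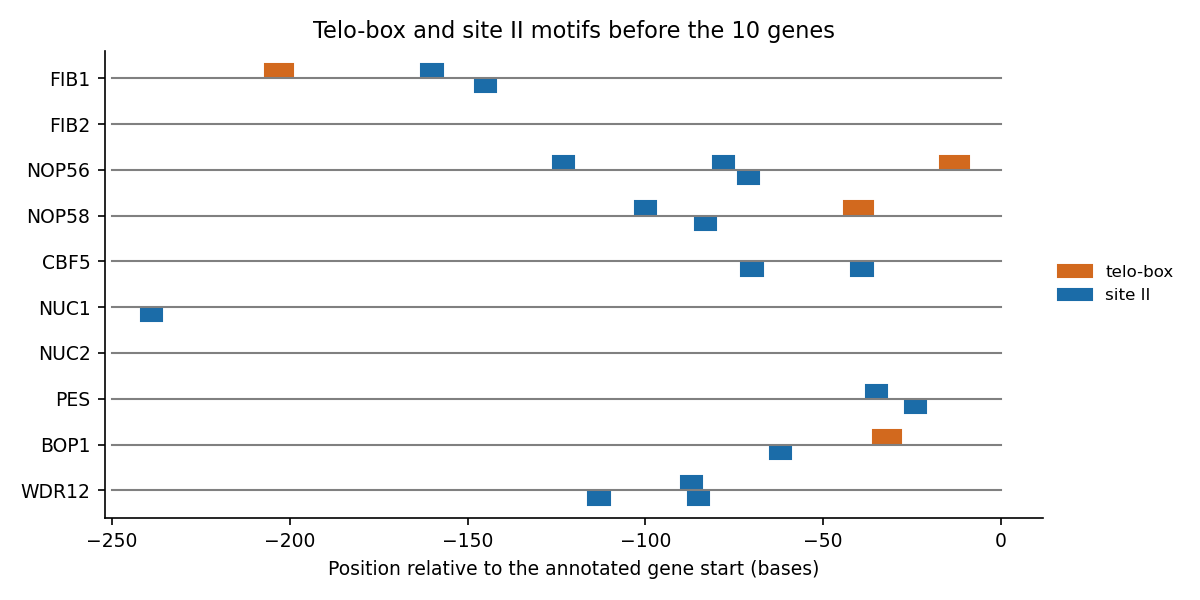
Positions of telo-box (orange) and site II (blue) letters in the 250 bases before the annotated start of the 10 genes; blocks above a line are on the gene's own strand and blocks below it on the other strand. Site II stands before 8 of the 10 genes and the telo-box before 4, and the lines of FIB2 and NUC2 are empty.

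The fibrillarin genes also carry a guide RNA of the kind their protein works with. The box C/D snoRNA U60.1F (AT5G52471) lies at chr5:21295736-21295809 in intron 5 of the 6 introns of FIB1. U60.2F (AT4G25631) lies at chr4:13075563-13075635 in the matching intron 5 of FIB2, both on the plus strand. Their sequences are given because the capitals, TGATGA near the 5′ end and CTGA near the 3′ end, are the letters of boxes C and D that bind the fibrillarin particle.
U60.1F: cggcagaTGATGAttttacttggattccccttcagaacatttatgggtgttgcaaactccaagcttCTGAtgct
U60.2F: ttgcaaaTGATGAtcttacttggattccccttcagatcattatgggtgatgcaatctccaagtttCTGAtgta

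Both snoRNA rows are listed at 0 for each time. The libraries were made from polyadenylated RNA, which such guide RNAs are not, so the values say nothing about the snoRNAs.

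PAN (AT1G68640), the induced gene, had 1.03, 688 and 385 FPKM in roots induced for 0, 6 and 24 h. This unit, fragments scaled to transcript length and library size, is meant to allow levels to be compared between genes as well as between times. Even so, changes at 24 h against 0 h went with transcript length, as described below. The read depth behind the values is unknown, and because replicates were pooled before deposit their spread is not known either. A gene is called changed where the authors' deposited table gives a q-value (a p-value adjusted for the number of tests) under 0.05 and the gene averaged at least 1 FPKM over the 3 times, as 17841 rows did. Changes are differences in log2(FPKM + 1) unless stated otherwise, a scale that understates the change of low genes.

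The nucleolar factors rose together by 24 h. All 9 genes above 1 FPKM were called higher at 24 h than at 0 h on the q-values that the authors' deposited table gives, and none was called lower. Among all 17841 rows, 23.8% were called higher at that time. Their differences in log2(FPKM + 1) lay between 0.53 for BOP1 and 1.42 for FIB1, with a median of 0.98, against a median of 0.05 over all rows. At 6 h the same 9 genes stood 0.20 to 0.38 above their 0 h levels, and none of these early differences was called, against 3.98% of all rows called higher and 7.35% called lower. Unadjusted p-values, worked back from q in the authors' deposited table, were below 0.05 for 2 of them, FIB1 and NOP56, both at 0.040. The share of all rows below this unadjusted limit is not given here, so no excess can be read from that count.

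**Figure D2:**
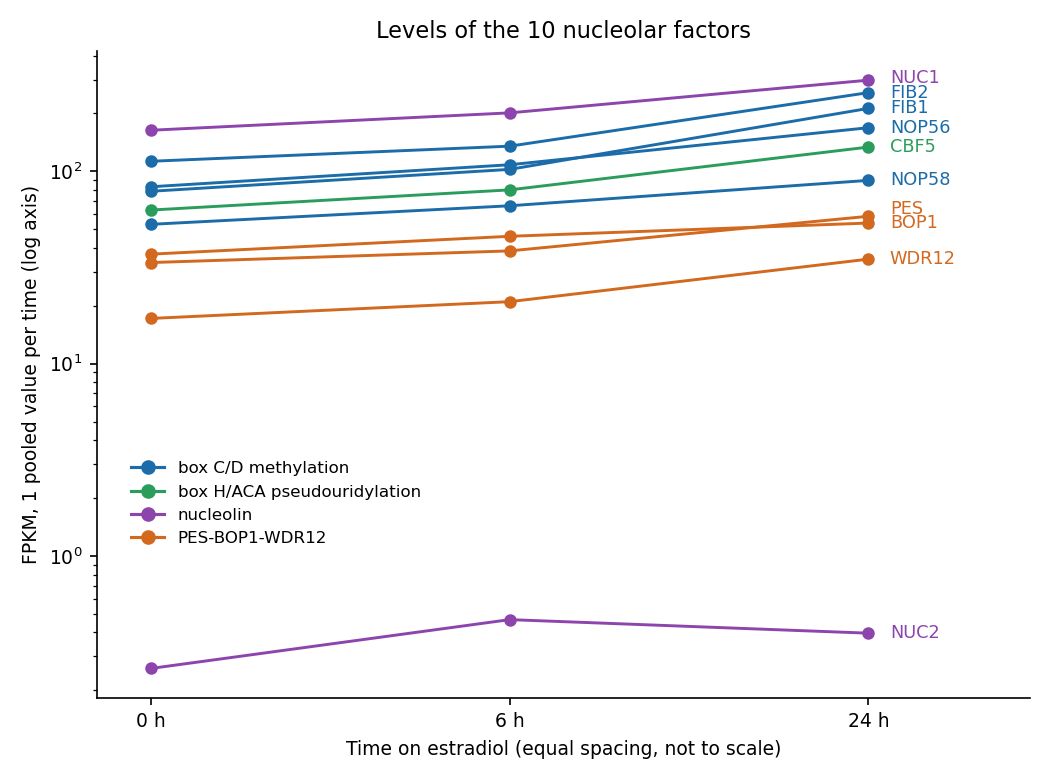
FPKM of the 10 genes at 0, 6 and 24 h on a log axis, 1 pooled value per gene and time and therefore without error bars; times are spaced evenly. The 9 upper lines climb at each step to between 34.9 and 298 FPKM at 24 h, while NUC2 stays below 0.5 FPKM.

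The fibrillarins, the methyltransferases of the box C/D particles, showed the largest uncorrected rises of the set at 24 h against 0 h. FIB1 had 78.8 FPKM at 0 h, 102 FPKM at 6 h and 212 FPKM at 24 h. Its level at 24 h was 2.70-fold that at 0 h, at q = 0.000358 in the authors' deposited table, the smallest value that the table holds. This smallest q-value is shared by 7475 tests, so it does not rank the genes that have it. FIB2 had 113, 135 and 257 FPKM at 0, 6 and 24 h, a 2.27-fold rise by 24 h, also at q = 0.000358 in the authors' deposited table. Most of the rise came after 6 h: by then FIB1 had covered 17.7% and FIB2 15.6% of its distance in FPKM between 0 and 24 h. The later step was called too, at 0.000358 for 24 h against 6 h in both genes in the authors' deposited table. FIB1 made up 41.1%, 43.1% and 45.3% of the summed fibrillarin level at 0, 6 and 24 h, so FIB2 remained the higher of the pair. A further fibrillarin gene (AT5G52490) was listed at 0 at each time.

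The scaffold genes of the same particle followed with smaller uncorrected changes. NOP56 had 83.1, 108 and 169 FPKM at 0, 6 and 24 h, and NOP58 had 53.0, 66.2 and 89.7 FPKM. NOP56 was 2.03-fold and NOP58 1.69-fold higher at 24 h than at 0 h, each at q = 0.000358 in the authors' deposited table. From 6 to 24 h NOP56 was higher still, at q = 0.0038 in the authors' deposited table. NOP58 did not pass there, at 0.056. The paralogues, given beside them, had like profiles. NOP58-2 (AT3G05060) had 41.6, 51.1 and 74.7 FPKM, with a change of 0.83 at 24 h, and the NOP56-like gene AT3G12860 had 8.06, 10.5 and 13.6 FPKM, with a change of 0.69. Both were called higher at 24 h than at 0 h, at 0.000358 and 0.0054 in the authors' deposited table. NOP58 kept 54.6 to 56.5% of the sum of the NOP58 pair at the 3 times.

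CBF5, the pseudouridine synthase of the box H/ACA particles, had 62.9, 80.1 and 134 FPKM at 0, 6 and 24 h. It was 2.13-fold higher at 24 h than at 0 h, at q = 0.000358 in the authors' deposited table. The step from 6 to 24 h was called as well, at 0.00067 in the authors' deposited table. CBF5 is the only one of the 10 genes whose annotated transcript has 1 exon. With 2261 bp it is also among the longer transcripts of the set.

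The nucleolins parted from each other by level. NUC1 was the highest of the 10 genes at each time, with 164 FPKM at 0 h, 201 FPKM at 6 h and 298 FPKM at 24 h. It was 1.82-fold higher at 24 h than at 0 h, at q = 0.000358 in the authors' deposited table, and rose further between 6 and 24 h at q = 0.019 in that table. NUC2, the second copy, had 0.260, 0.466 and 0.396 FPKM, no more than 0.231% of the summed nucleolin level at any time. The authors' deposited table lists its q-value as 1 in all 3 comparisons, so no change could be shown at this level. The last 90 bp of NUC1 overlap GH9C1 (AT1G48930), a cellulase-family gene on the other strand. GH9C1 had 182, 166 and 78.2 FPKM at 0, 6 and 24 h, the opposite course to NUC1. The library kit marks strand, but whether the counting used it is not given in the sources used here.

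Of the PES, BOP1 and WDR12 trio, WDR12 changed most. It had 17.2, 21.0 and 34.9 FPKM at 0, 6 and 24 h and was 2.03-fold higher at 24 h than at 0 h, at q = 0.000358 in the authors' deposited table. PES had 33.5, 38.6 and 58.4 FPKM and was 1.74-fold higher at 24 h, at q = 0.00067 in the authors' deposited table. BOP1 had 37.1, 45.9 and 53.8 FPKM and was 1.45-fold higher at 24 h, at q = 0.018 in the authors' deposited table. BOP1 thus had the smallest called rise of the set, with 52.8% of its distance in FPKM between 0 and 24 h covered by 6 h. From 6 to 24 h PES and WDR12 were called, at 0.0056 and 0.00067 in the authors' deposited table, and BOP1 was not, at 0.37. The level of WDR12 relative to BOP1 was 0.463 at 0 h, 0.457 at 6 h and 0.649 at 24 h, and that of PES 0.904, 0.840 and 1.08. These ratios take no account of transcript length, which is 1773 bp for WDR12, 2164 bp for PES and 2641 bp for BOP1. With the median change of genes of like length subtracted, as described below, their differences at 24 h against 0 h were 0.97, 0.87 and 0.75.

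From 6 to 24 h, 7 of the 9 genes were called higher, FIB1, FIB2, NOP56, CBF5, NUC1, PES and WDR12, against 19.6% of all rows. The comparisons share their 0, 6 and 24 h libraries, so these counts are not independent of one another. In order of level at 0 h the genes ran NUC1, FIB2, NOP56, FIB1, CBF5, NOP58, BOP1, PES, WDR12 and NUC2. At 24 h FIB1 stood above NOP56 and PES above BOP1, and the other places were as before. Whether neighbours in this order differ beyond replicate spread cannot be said from pooled values. At 24 h the 9 genes lay between percentiles 75.3 (WDR12) and 96.3 (NUC1) of all rows used, against 57.7 and 93.6 for the same genes at 0 h. The 10 genes together held 0.0688%, 0.0929% and 0.132% of the summed FPKM at 0, 6 and 24 h.

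The other genes of ribosome biogenesis were then examined as a list of 71 loci in 6 role groups, of which 70 have a row of their own and 69 a mean of at least 1 FPKM. At 24 h against 0 h, 44 were called higher and 0 lower on the authors' deposited q-values, and 25 did not pass. Among all rows 23.8% were called higher and 23.8% lower. The median change of the 69 genes was 0.62. Of the 10 partners and paralogues of the box C/D and H/ACA proteins among them, 8 were called higher. NAF1, an assembly factor of the H/ACA particle, and GAR1b, a low copy of its subunit GAR1, were not called.

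The gene with the largest called rise is given for each role group. SNU13b (AT4G22380), a copy of the small RNA-binding protein of the box C/D particle, had 9.52, 14.2 and 34.6 FPKM at 0, 6 and 24 h and changed by 1.76 by 24 h. NOP10 (AT2G20490), a small core protein of the H/ACA particle, had 120, 160 and 411 FPKM and also changed by 1.76. Both rises were called at q = 0.000358 in the authors' deposited table.

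The small subunit processome is the particle that makes the first cuts, but its role group here also holds genes for later steps. Of its 22 genes, 14 were called higher at 24 h than at 0 h on the authors' q-values, against 23.8% of all rows. IMP4 (AT1G63780), a protein of the U3 particle, led them with a change of 1.20 and values of 19.5, 24.8 and 46.1 FPKM. Of 25 large subunit assembly genes 17 were called higher, against the same share of all rows. NOP16 (AT1G02870) led with a change of 1.45 and values of 21.4, 23.7 and 60.1 FPKM.

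Of 8 helicase and exosome genes 3 were called higher at 24 h than at 0 h, and of 4 RNA polymerase I genes 2 were, small groups to set against the 23.8% of all rows. The exosome subunit gene RRP41 (AT3G61620) changed by 1.15 and the polymerase subunit gene RPAC43 (AT1G60620) by 0.75. The authors' deposited table gives them q-values of 0.000358 and 0.0050. The polymerase subunit genes NRPA1 and NRPA2 were not called, with changes of -0.38 and 0.16.

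At 6 h against 0 h, 1 of the 69 genes was called higher and 0 lower, against 3.98% and 7.35% of all rows. The one called was MDN1 (AT1G67120), which encodes the very large ATPase midasin, with 1.67, 2.35 and 1.62 FPKM at 0, 6 and 24 h called at q = 0.040 in the authors' deposited table. Of the 69 genes, 5 stood higher at 6 h with a recovered p-value below 0.05 before adjustment. The share of all rows at that unadjusted limit is not given here, so this count shows no excess. From 6 to 24 h, 27 were called higher, against 19.6% of all rows, and 3 lower, against 19.8% of all rows. The lower ones, named after their values were seen, were MDN1, the processome gene UTP10 (AT3G06530) and NRPA1 (AT3G57660), the largest subunit of RNA polymerase I. NRPA1 had 4.98, 6.21 and 3.61 FPKM at 0, 6 and 24 h and UTP10 had 7.31, 9.20 and 6.13 FPKM.

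**Figure D3:**
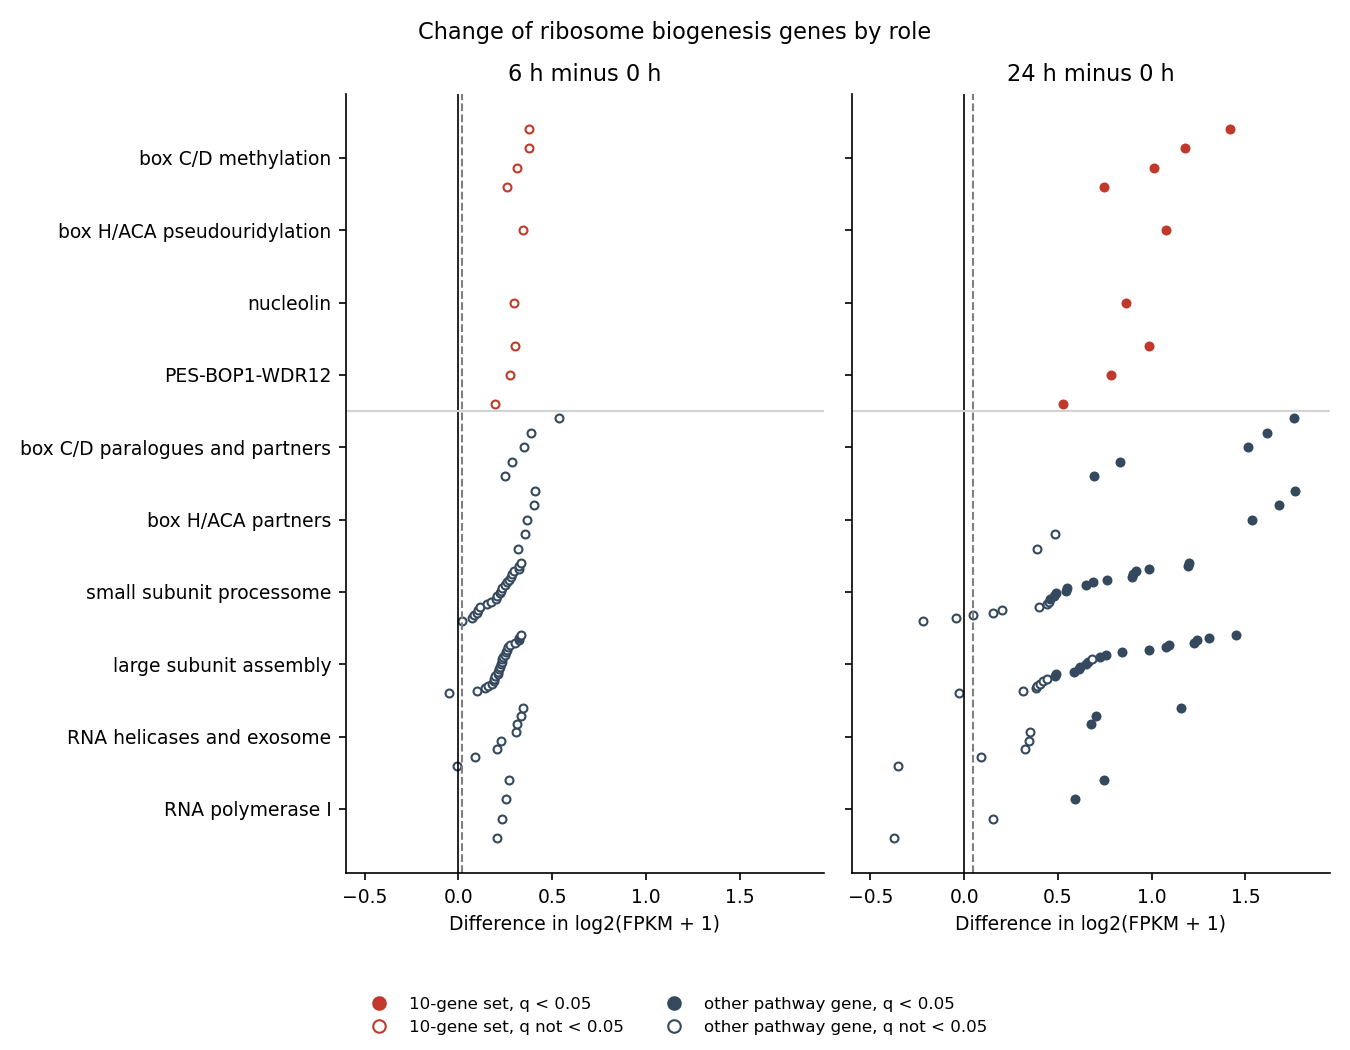
Differences in log2(FPKM + 1) of the 10-gene set (red, 9 genes with a mean of at least 1 FPKM) and of 69 other ribosome biogenesis genes (dark) by role, at 6 h minus 0 h (left) and 24 h minus 0 h (right). Filled points have q below 0.05 in the authors' deposited table, and the dashed line is the median of all rows. At 24 h every red point is filled and lies at 0.53 or above; at 6 h none is.

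The size of the change at 24 h went with transcript length. Across the 78 pathway genes, the 9 nucleolar factors included, the change since 0 h had a Spearman's rho with length of -0.78 by 24 h and of 0.016 by 6 h. Over 17501 rows of all kinds rho was -0.39 by 24 h and -0.016 by 6 h. These are descriptions across genes that share their libraries. NOP10, SNU13b and NOP16, with transcripts of 580, 775 and 847 bp, had the largest changes of their groups, and NRPA1, UTP10 and MDN1, with 5610, 7044 and 16593 bp, stood below 0 h by 0.38, 0.22 and 0.03. None of these 3 differences was called. Length did not order every gene: GAR1b, with 726 bp, changed by 0.48 and was not called, and the processome gene NOF1 (AT1G17690), with 2645 bp, had a difference of -0.05, also not called. Among the 9 factors, FIB1 and FIB2 have the shortest transcripts, 1380 and 1339 bp, and BOP1 the longest, 2641 bp.

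Set against genes of like length, the nucleolar factors still stood higher. When the running median of the change over 50 length bins was subtracted, the difference at 24 h against 0 h was 0.75 for BOP1, 1.20 for FIB1, 0.95 for FIB2 and 1.25 for CBF5. Its median over the 9 genes was 0.95, close to the 0.98 without the correction. CBF5 then had the largest difference of the set, and FIB2 stood below CBF5, FIB1, NOP56 and WDR12. NRPA1, UTP10 and MDN1 lay above the running median as well, by 0.25, 0.40 and 0.59. These genes share the longest bin, whose median length is 5612.5 bp, so MDN1, with 16593 bp, was not set against genes of like length. Of the 69 other genes, 68 lay above the running median at 24 h, all but GAR1b, with a median of 0.69. Among all rows with a transcript of 1339 to 2641 bp and a mean of at least 10 FPKM, a comparison chosen after the values were seen, 18.4% of 5258 were called higher at 24 h.

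**Figure D4:**
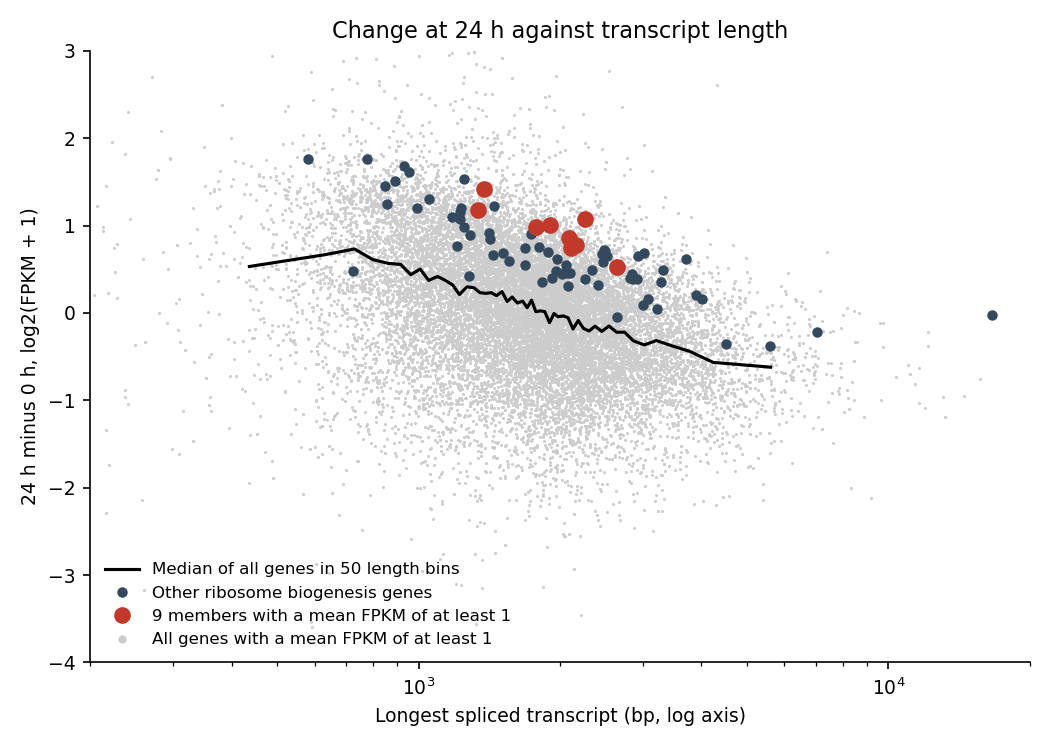
Difference in log2(FPKM + 1) between 24 h and 0 h against the length of the longest spliced transcript (log axis), for 9 nucleolar factors (red), 69 other ribosome biogenesis genes (dark) and all genes with a mean of at least 1 FPKM (grey). The black line is the median in 50 length bins, and 102 of 17501 genes lie outside the axes. All red points lie above the line, by 0.75 to 1.25.

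Markers of dividing cells and of root hair cells moved over the same hours. Of 10 genes of dividing cells, 9 were called higher at 24 h than at 0 h by the authors' deposited table, against 23.8% of all rows, and the summed level of the 10 was 106, 135 and 225 FPKM at 0, 6 and 24 h. The tenth, MCM2, had 7.40, 8.34 and 8.27 FPKM. Of 7 genes of root hair cells, 7 were called lower, against 23.8% of all rows, and their summed level was 2296, 1746 and 1250 FPKM. No gene of either list was at 0 at any time. The median change of the dividing-cell genes at 24 h was 1.12, beside 0.98 for the nucleolar factors. With the length trend subtracted the order was the other way, at 0.86 and 0.95. The part of cell makeup in the rise of the nucleolar factors was not tested, and in whole samples more cells of a type and more RNA per cell cannot be told apart.

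The rows outside the set with the most similar course were found by their distance from the set's median steps, which were 0.30 between 0 and 6 h and 0.64 between 6 and 24 h, among rows of a single locus with a mean of at least 5 FPKM. The nearest 5 were TOPP7 (AT4G11240) and TOPP1 (AT2G29400), both type one protein phosphatases, the GTPase gene RABG3c (AT3G16100), AT1G34770, annotated as similar to a melanoma-associated antigen, and AT1G60080, annotated as an exoribonuclease. TOPP7 had 19.9, 24.8 and 39.0 FPKM at 0, 6 and 24 h. AT1G60080 had 6.76, 8.62 and 14.1 FPKM. All 5 lay within 0.021 of the median steps. NUC1, the closest of the set, lay at 0.072, with 78 of 13047 other rows closer. FIB1, the farthest, lay at 0.42, with 2539 of those rows closer. The course is thus shared with many genes.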

How the data were processed

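Polyadenylated RNA from roots was made into strand-specific libraries and sequenced as single-end reads of 100 bp, per the labels' protocols. The submitters' processing notes name TopHat2 2.0.13, Cufflinks 2.1.1, Cuffdiff and TAIR10, without the role of each. The authors deposited 1 table with 3 kinds of value. Its deposited levels are taken as FPKM from the values and from the tools named, since the header gives no unit. The log2 fold changes and the q-values are the authors' own, per the file headers. The deposited log2 fold change equals the log2 ratio of the FPKM within 0.001 in at least 99.9952% of rows above 0.

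Because the 3 replicates of each time were pooled before deposit, the authors' test could not be repeated. The labels call the samples biological replicates, but how their spread entered that test is not given in the sources used here. The smallest q-value, 0.000358, corresponds to a p-value of 5e-05 if the q-values are a Benjamini-Hochberg adjustment over the 53530 tests with a q-value below 1; p-values were recovered on that reading. Lengths, products and promoters came from the TAIR10.1 RefSeq annotation, which gave a length for 98.1% of the 17841 rows. No run of 100 bp in the longest transcript of any member was found in the longest transcript of another locus, in either orientation.

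The members, gene lists and tests were chosen with earlier results of these data known. Named genes were the 10 members, PAN, the paralogues, the called gene of each role group with the largest rise or fall, and the 5 rows nearest in course. GH9C1, NAF1, GAR1b, MCM2, UTP10, NRPA1, NRPA2 and NOF1 fall outside this rule and were named after their values were seen. BRX1-1 shares its row with another locus and was not used. Computed with Python 3.11.15, pandas 2.3.3 and numpy 2.4.6; the recovery of p-values, the scaling and the length correction were tested on simulated data.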

Additional observations from a re-analysis of the deposited data

How the results depend on the processing

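No paired analysis was possible because the replicates of each time were merged before deposit, and for the same reason no replicate could be left out. All 141 recomputed changes of single genes of the set kept their direction. The settings were a pseudocount of 0.1, the authors' log2 fold change, median-of-ratios scaling, quantile normalization and removal of the length trend. The first pair cannot reverse a direction, because both use the same pooled values, so only the other settings could have done so. NUC2, below the limit of 1 FPKM, was recomputed under the first pair only. Among the recomputed changes, removal of the length trend raised BOP1 at 24 h against 6 h to 0.47, against 0.22 as reported. For NUC2 the pseudocount sets the size: its change at 6 h against 0 h was 0.22 as reported, 0.65 with a pseudocount of 0.1 and 0.84 with none, as in the authors' deposited table. In the same order it was 0.15, 0.46 and 0.61 for 24 h against 0 h, and -0.07, -0.19 and -0.23 between 6 and 24 h. The 2 scalings moved a change by at most 0.15 and cannot move calls, which rest on the authors' q-values. Of 60 recomputed counts and medians, 50 stayed within 1.5 times. Part of this was fixed in advance, since a count of 0 cannot change under a stricter limit. With a minimum change of 1 in log2(FPKM + 1), 4 of the 9 genes were called for 24 h against 0 h, while between 6 and 24 h 1 was. Of the other pathway genes that setting left 15 higher for 24 h against 0 h, 10 higher and 0 lower between 6 and 24 h, and 0 for the first 6 h. The single call at 6 h, MDN1, also gave 0 with a q-value limit of 0.01, with p-values adjusted within the comparison and with a minimum mean of 5 FPKM. That minimum left 1 gene lower at 24 h against 6 h, because MDN1 and NRPA1 lie under it. Adjustment within the comparison added NOP58 to the genes called at 24 h against 6 h, 8 in all.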
